A study of Mus musculus with 6 samples.

Results

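The 10 genes followed here report on and restrain ERK signalling in 3 lines of NE-4C, a mouse neural stem cell line. They are the phosphatase genes Dusp6 and Dusp4, the Sprouty genes Spry1, Spry2 and Spry4, the Sprouty-related genes Spred1 and Spred2, the ETS factor genes Etv4 and Etv5, and Phlda1. They were chosen by name from the pathway, with earlier results of these data known, and all 10 were found among the 14082 genes that both deposited tables hold. Per the series text, the parent cells lack p53, and every line has a knockout of H3f3a, a gene encoding histone H3.3, and stably expresses an HA-tagged H3.3 in its place. In H3.3WT this was the wild-type protein. Cbfa2t2_KO expressed the wild-type protein too, and in addition had its Cbfa2t2 gene knocked out, which encodes a transcriptional corepressor. H3.3K27M expressed the mutant whose lysine 27 is a methionine, with no Cbfa2t2 knockout. Each line gave 2 poly(A) RNA-seq libraries, 6 in all. The labels do not say whether a line is 1 clone or whether its libraries came from separate cultures, so every p-value here reflects the spread between libraries alone, which may be technical.

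In the ERK pathway, growth factors bind receptor tyrosine kinases, which act through RAS and the kinases RAF, MEK and ERK. Active ERK reaches the nucleus, where it releases ETS-dependent genes from repression and switches on the genes of its own inhibitors. Sprouty and Spred proteins act upstream on RAS and RAF, DUSP6 removes phosphate from ERK in the cytoplasm and DUSP4 does so in the nucleus. In neural progenitors the pathway lies downstream of FGF, and Dusp6, Spry, Etv4 and Etv5 are commonly read as its output. RNA levels of these genes are not a measure of ERK phosphorylation, which was not measured here.

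Promoters of 4 of the genes that the comparisons turn on are shown first, because the repressor CIC, which ERK signalling inactivates, is known to act on several of these genes through octamers that read TGAATGAA, TGAATGGA, TCAATGAA or TCAATGGA. RefSeq start sites on GRCm38.p6 were at hand for 6 of the 10 genes, in 7 windows of equal length, most of each upstream of the start. Those of Dusp4, Spry4, Etv4 and Phlda1 are not shown. The 250 bases upstream of the start follow for Dusp6 (chr10:99262981-99263230, forward strand), for the downstream start of Etv5 (chr16:22438369-22438618, reverse strand), for Spry2 (chr14:105896820-105897069, reverse strand) and for Spry1 (chr3:37639697-37639946, forward strand). Dusp6 and Etv5 fell in Cbfa2t2_KO, and Spry1 and Spry2 stood higher in H3.3K27M than in Cbfa2t2_KO. Each reads 5′ to 3′ on the strand of the gene, and capitals mark the hexamers TGAATG and TCAATG of the octamer on either strand.
Dusp6: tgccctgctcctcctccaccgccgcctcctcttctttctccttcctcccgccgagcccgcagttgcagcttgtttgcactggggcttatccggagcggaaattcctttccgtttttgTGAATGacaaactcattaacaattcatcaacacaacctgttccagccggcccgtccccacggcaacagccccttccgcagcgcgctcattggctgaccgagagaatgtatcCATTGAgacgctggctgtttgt
Etv5: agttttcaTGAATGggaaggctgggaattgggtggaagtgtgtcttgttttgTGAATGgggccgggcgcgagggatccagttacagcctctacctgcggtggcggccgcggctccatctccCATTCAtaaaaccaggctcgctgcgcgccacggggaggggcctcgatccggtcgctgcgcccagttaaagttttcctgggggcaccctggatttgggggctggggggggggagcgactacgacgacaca
Spry2: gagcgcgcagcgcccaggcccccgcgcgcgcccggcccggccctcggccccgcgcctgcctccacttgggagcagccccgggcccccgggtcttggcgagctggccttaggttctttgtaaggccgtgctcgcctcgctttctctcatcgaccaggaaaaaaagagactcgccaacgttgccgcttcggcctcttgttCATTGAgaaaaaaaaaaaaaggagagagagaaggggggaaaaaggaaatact
Spry1: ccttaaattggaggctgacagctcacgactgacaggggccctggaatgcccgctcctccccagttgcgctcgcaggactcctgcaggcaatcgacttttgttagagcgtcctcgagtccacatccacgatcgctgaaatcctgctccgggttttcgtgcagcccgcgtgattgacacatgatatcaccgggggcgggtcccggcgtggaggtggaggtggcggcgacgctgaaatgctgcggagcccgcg

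A complete octamer lay in the windows of Dusp6 and Spry2. The window of Dusp6 held 2, both reading TCCATTGA on the strand of the gene, at bases -24 to -17 and 1 to 8 counted from the start site as 0. That of Spry2 held TTCATTGA at bases -54 to -47. The octamer occurs in 3.84% of all 32851 RefSeq windows of this length, and the shorter hexamers in 19.9%. Etv5 had 3 copies of TGAATG or its reverse complement upstream of its downstream start and no complete octamer. The window at its other start held no such hexamer, and 3 of the 7 windows held any. Other motifs were searched on both strands in the same 7 windows. The ETS word CCGGAAG, the AP-1 word TGANTCA, the CRE word TGACGTCA and the CArG box were in none of them, against 8.86%, 7.81%, 1.79% and 1.63% of all windows. The PEA3 word AGGAAG was in the windows of Dusp6, Etv5 and Spred2, and in 35.4% of all windows. These matches describe letters only. The windows were also rich in CpG, with 17 to 40 CpG each against a median of 7 over all windows, and a GC content of 57.0% to 74.0% against a median of 52.7%.

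Levels are FPKM as deposited, a unit corrected for gene length, and the tables hold no counts, so read depth is unknown. A library's FPKM summed to between 363586 and 419389. Correlations of log2 values between libraries ran from 0.984 to 0.988 within a line and from 0.945 to 0.978 between lines, as a description across genes. Cbfa2t2 was low everywhere: the H3.3WT libraries had 1.38 and 1.35 FPKM, those of Cbfa2t2_KO 1.02 and 0.769, and those of H3.3K27M 2.02 and 0.855. Its difference between Cbfa2t2_KO and H3.3WT did not pass (limma, adjusted p = 0.153), so this level does not check the knockout label. H3f3a stood at 131 to 181 FPKM in H3.3WT and at 66.3 to 82.1 in the other 4 libraries. Of 15 neural stem and progenitor markers, 13 were in both tables, with a summed level of 212 to 275 FPKM per library. Sox1 and Fabp7 were not among them. Of 11 tested, 5 were lower and 3 higher in Cbfa2t2_KO by limma, and 5 lower and 2 higher in H3.3K27M. Sox2, for example, had 32.7 ± 2.47 FPKM in H3.3WT and 10.9 ± 1.95 in Cbfa2t2_KO (SD, n = 2), while Id1 had 40.7 ± 2.93 and 124 ± 9.84 and Vim 11.2 ± 1.28 and 26.9 ± 0.529. The pluripotency markers, 9 of 10, summed to 1435 to 1963 FPKM. Most of that was Pou5f1, with means of 994, 1092 and 1245 FPKM in H3.3WT, Cbfa2t2_KO and H3.3K27M. Of 7 tested, 3 were lower and 1 higher in Cbfa2t2_KO by limma, and of 8 tested, 0 were lower and 2 higher in H3.3K27M. Over all genes tested, 21.5% were lower and 13.1% higher in Cbfa2t2_KO, and 17.8% and 8.42% in H3.3K27M. The epithelial markers, 8 of 10, summed to 147 to 174 FPKM in H3.3WT, 287 to 295 in Cbfa2t2_KO and 242 to 248 in H3.3K27M. Of 7 tested, 5 were higher and 0 lower in Cbfa2t2_KO by limma, and 3 higher and 0 lower in H3.3K27M. The neuronal markers, 5 of 10, summed to 77.9 to 79.4 FPKM in H3.3WT, 136 to 151 in Cbfa2t2_KO and 77.5 to 82.2 in H3.3K27M. Most of this was Tubb3, at 68.2 ± 1.04 FPKM in H3.3WT and 131 ± 11.2 in Cbfa2t2_KO. Of 4 tested, 1 was higher and 0 lower in Cbfa2t2_KO by limma, and 0 higher and 2 lower in H3.3K27M. The astrocyte markers, 3 of 7, summed to 26.2 to 33.3, 25.6 to 41.3 and 49.2 to 61.4 FPKM in the same order. Their members went both ways, 1 higher and 1 lower in Cbfa2t2_KO and 2 higher and 1 lower in H3.3K27M. Gja1 had 16.1 ± 4.64 FPKM in H3.3WT and 42.9 ± 7.24 in H3.3K27M, and Slc1a3 11.7 ± 0.173 and 7.23 ± 1.35. Map2, Dcx, Gfap and Aqp4 were not among the summed markers. The mesenchymal markers, 7 of 10, summed to 43.6 to 46.5, 33.4 to 33.7 and 42.4 to 54.1 FPKM in the same order. They too went both ways by limma. Of 7 tested in Cbfa2t2_KO 3 were lower and 2 higher, and of 6 tested in H3.3K27M 1 was lower and 1 higher. Of the 8 leukocyte and 7 endothelial markers, 1 each was in both tables. Whether these shifts have a part in the results below was not tested, and in bulk RNA fewer cells of a type and less RNA per cell cannot be told apart.

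All 10 genes passed the filter of a mean of at least 1 FPKM in each comparison. In H3.3WT they ranged from Etv5 at 61.2 ± 8.40 FPKM, higher than 93.0% of all genes in both tables, down to Spry1 at 3.15 ± 0.274, higher than 39.1%. Spred2, Dusp4 and Dusp6 followed Etv5 at 19.8 ± 0.773, 18.6 ± 0.556 and 17.998 ± 1.81 FPKM, with both Dusp4 libraries inside the range of the Dusp6 libraries. Etv4, Spry4, Spred1, Spry2 and Phlda1 lay between 3.74 and 9.84 FPKM. On the GRCm38 annotation, from which all coordinates come, the set is scattered over 8 chromosomes, with Dusp6 and Phlda1 together on chromosome 10 and Etv4 and Spred2 on chromosome 11. Of the 10, 5 have at most 3 exons in any transcript: Dusp6, Spry1, Spry2, Spry4 and Phlda1.

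**Figure D1:**
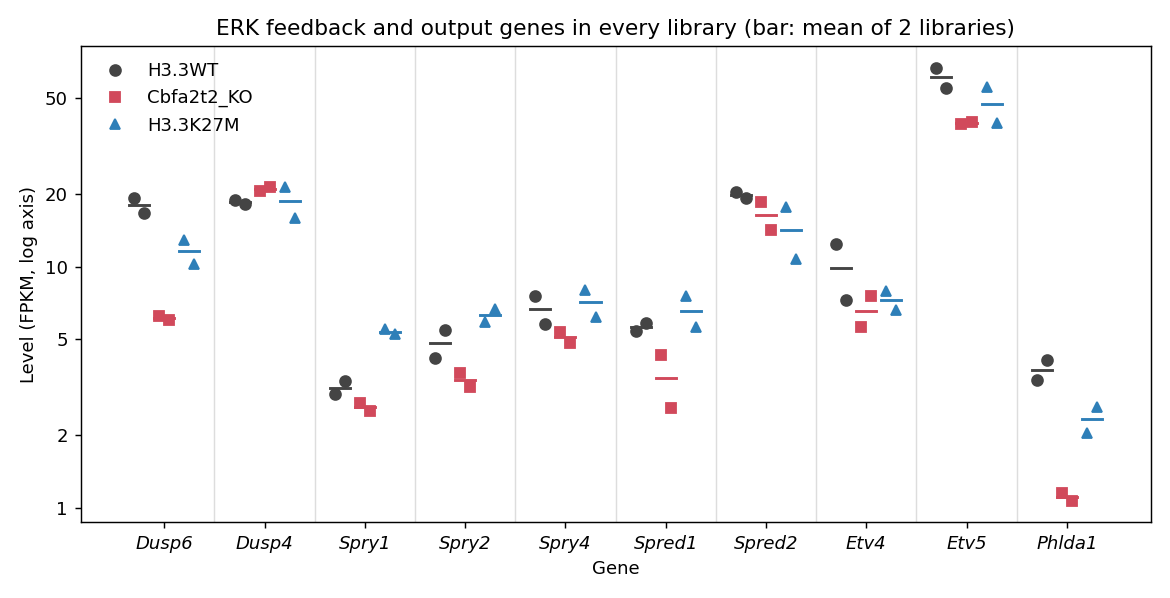
Level of each gene in every library, in FPKM on a log axis, for H3.3WT (circles), Cbfa2t2_KO (squares) and H3.3K27M (triangles), with a bar at the mean of the 2 libraries. Dusp6 and Phlda1 step down from H3.3WT through H3.3K27M to Cbfa2t2_KO, and Spry1 is highest in H3.3K27M.

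The first comparison asked how these genes differed after Cbfa2t2 knockout. Dusp6, Phlda1 and Etv5 fell against H3.3WT, to 34.2%, 29.7% and 64.4% of its mean. No member rose. The other 7 did not pass, 6 of them with means below H3.3WT and 1, Dusp4, above it. That is 3 of 10 members lower by limma at an adjusted p under 0.05, where 21.5% of the 11626 genes tested were called lower, 13.1% higher and 34.6% in either direction, so the share of members called lies near that of all genes. At an unadjusted p under 0.05, 4 members were lower and none higher. The median log2 change of the members was -0.45 and that of all genes -0.11. Median-of-ratios scaling brought these to -0.34 and -0.0027 and raised the share of all calls that were higher from 37.93% to 50.57%, and the same 3 members were called lower. The 4028 calls over all genes became 1915 without Cbfa2t2_KO replicate 2, with 2 members called, and 2236 without H3.3WT replicate 2, with 4.

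Dusp6, the cytoplasmic ERK phosphatase (ENSMUSG00000019960, chromosome 10, 99263231 to 99267489, forward strand, 3 exons), stood at 19.3 and 16.7 FPKM in H3.3WT and at 6.27 and 6.02 in Cbfa2t2_KO. Both knockout libraries lay far below both H3.3WT libraries. The change in log2(FPKM + 1) was -1.41 ± 0.16 (SE, limma, adjusted p = 0.0011), and it passed in all 12 alternatives run (-1.53 to -1.23, adjusted p from 0.00021 to 0.016). Dusp4, the nuclear phosphatase of the same family (ENSMUSG00000031530, chromosome 8, 34807297 to 34819894, forward strand), stood at 19.0 and 18.2 FPKM in H3.3WT and 20.6 and 21.5 in Cbfa2t2_KO. Its libraries did not overlap either, but the change of 0.17 ± 0.14 did not pass (adjusted p = 0.376); it passed as higher once GC, length and exons were adjusted for (0.35, adjusted p = 0.040; adjusted p from 0.040 to 0.612 over its alternatives). The ratio of Dusp6 to Dusp4 within a library does not depend on library scaling. It was 1.01 and 0.917 in H3.3WT, 0.305 and 0.280 in Cbfa2t2_KO and 0.604 and 0.644 in H3.3K27M, so 2 phosphatase genes of like level in H3.3WT were apart in both other lines.

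Phlda1, which encodes a pleckstrin homology domain protein induced by growth factors (ENSMUSG00000020205, chromosome 10, 111506286 to 111508645, forward strand, 2 exons), was the member with the lowest fraction left. It stood at 3.37 and 4.10 FPKM in H3.3WT and at 1.15 and 1.07 in Cbfa2t2_KO, with no overlap. The log2 change of -1.16 ± 0.17 passed (adjusted p = 0.0025) and did so in the 11 alternatives that kept the gene. Under the filter of a mean of 5 FPKM it was not tested. An unmeasured lincRNA model, Gm28592, overlaps it by 1088 bases on the other strand, and as the strand of the libraries is not stated, reads of both cannot be told apart.

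Etv5, an ETS transcription factor of the PEA3 group (ENSMUSG00000013089, chromosome 16, 22381309 to 22439719, reverse strand, 13 exons), stood at 67.1 and 55.3 FPKM in H3.3WT and at 39.1 and 39.8 in Cbfa2t2_KO. The lines did not overlap. The change of -0.61 ± 0.15 passed (adjusted p = 0.015), but not without H3.3WT replicate 1 (adjusted p = 0.071), Cbfa2t2_KO replicate 1 (0.064) or Cbfa2t2_KO replicate 2 (0.076). Its close relative Etv4 (ENSMUSG00000017724, chromosome 11, 101769742 to 101785371, reverse strand) stood at 12.4 and 7.30 FPKM in H3.3WT and 5.60 and 7.53 in Cbfa2t2_KO. Those libraries overlapped, and the change of -0.49 ± 0.25 did not pass (adjusted p = 0.163). Without H3.3WT replicate 2 it passed (-0.84, adjusted p = 0.043; adjusted p from 0.043 to 0.685 over its alternatives). Within libraries, the Etv5 to Etv4 ratio ran from 5.28 to 7.57 over all 6 libraries, with the lines overlapping.

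The Sprouty and Spred genes among the 10 members all had lower means in Cbfa2t2_KO and none passed. This does not hold for the whole families. Outside the members, Spry3 was called higher and Spred3 lower in both lines against H3.3WT by limma. Spry1 (ENSMUSG00000037211, chromosome 3, 37639947 to 37644598, forward strand) stood at 2.95 and 3.34 FPKM in H3.3WT and at 2.72 and 2.52 in Cbfa2t2_KO. Spry2 (ENSMUSG00000022114, chromosome 14, 105891947 to 105896819, reverse strand) stood at 4.19 and 5.48 against 3.63 and 3.17. Spry4 (ENSMUSG00000024427, chromosome 18, 38586247 to 38601415, reverse strand) stood at 7.58 and 5.77 against 5.38 and 4.83. In all 3 Sprouty genes both knockout libraries lay below both H3.3WT libraries, yet the log2 changes of -0.20 ± 0.17, -0.40 ± 0.19 and -0.32 ± 0.19 had adjusted p-values of 0.399, 0.135 and 0.215. Groups did not overlap for 9 of the 10 members, 8 lower and 1 higher, and for 70.4% of all genes tested in this comparison, 42% lower and 28.5% higher. Adjusting for GC, length and exons turned Spry1 to 0.044 and brought Spry4 to -0.0020.

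Spred1, which recruits neurofibromin to RAS (ENSMUSG00000027351, chromosome 2, 117121374 to 117182279, forward strand), stood at 5.43 and 5.86 FPKM in H3.3WT and at 4.30 and 2.58 in Cbfa2t2_KO. The change of -0.61 ± 0.22 was as large as that of Etv5 but missed the threshold (adjusted p = 0.064), with the knockout libraries far apart. Without Cbfa2t2_KO replicate 1 it passed (-0.89, adjusted p = 0.030; adjusted p from 0.030 to 0.298 over its alternatives). Spred2 (ENSMUSG00000045671, chromosome 11, 19924375 to 20024026, forward strand) stood at 20.4 and 19.3 against 18.5 and 14.2, a change of -0.27 ± 0.17 (adjusted p = 0.235).

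The second comparison asked how the same genes differed with H3.3K27M. Dusp6 fell to 64.6% of the H3.3WT mean, Spry1 rose to 171% of it, and the other 8 did not pass. So 1 of 10 members was lower, where 17.8% of 11623 genes were, and 1 of 10 higher, where 8.42% were; 26.2% of genes were called in either direction. At an unadjusted p under 0.05, 2 members were lower and 1 higher. Libraries did not overlap for 5 members, 3 lower and 2 higher, and for 66.3% of all genes, 41.3% lower and 25.1% higher. The median log2 change was -0.18 for the members and -0.12 for all genes. Median-of-ratios scaling moved these to -0.038 and 0.0053 and the share of all calls that were higher from 32.11% to 49.32%. The H3.3WT libraries are the same as in the first comparison, so the 2 sets of changes are not independent. Without H3.3K27M replicate 2, H3.3WT replicate 1 or H3.3WT replicate 2 no member was called (limma; 2, 1 and 3 at an unadjusted p under 0.05), and the 3049 calls over all genes became 1589, 1206 and 1007.

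Spry1 stood at 5.52 and 5.23 FPKM in H3.3K27M, above both H3.3WT libraries at 2.95 and 3.34. The log2 change of 0.62 ± 0.19 passed (adjusted p = 0.040). It passed in 7 of 11 alternatives and was lost without any 1 of the 4 libraries, at adjusted p = 0.085 without H3.3K27M replicate 1, 0.086 without replicate 2, 0.197 without H3.3WT replicate 1 and 0.130 without replicate 2. The gene model Gm42922 overlaps Spry1 by 710 bases on the other strand and stood at 0.331 to 0.644 FPKM in all 6 libraries. Spry2 stood at 5.92 and 6.71 FPKM in H3.3K27M, also above both H3.3WT libraries, with a change of 0.33 ± 0.20 that did not pass (adjusted p = 0.245). Spry4 at 8.03 and 6.20 and Spred1 at 7.53 and 5.64 overlapped H3.3WT, with changes of 0.08 ± 0.21 (adjusted p = 0.802) and 0.18 ± 0.20 (adjusted p = 0.535).

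Dusp6 stood at 12.9 and 10.3 FPKM in H3.3K27M, below both H3.3WT libraries. The log2 change of -0.59 ± 0.19 was just inside the threshold (adjusted p = 0.047), and 4 of 12 alternatives called it. It was lost without H3.3K27M replicate 2, H3.3WT replicate 1 or H3.3WT replicate 2 (adjusted p = 0.168, 0.235 and 0.125) and with median-of-ratios scaling (-0.45, adjusted p = 0.106). Phlda1 at 2.05 and 2.63 FPKM lay below both H3.3WT libraries as well, with a change of -0.51 ± 0.20 (adjusted p = 0.091). Etv5 at 55.5 and 39.4 and Etv4 at 7.90 and 6.64 overlapped H3.3WT, with changes of -0.37 ± 0.21 (adjusted p = 0.206) and -0.35 ± 0.25 (adjusted p = 0.314).

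Spred2 at 17.7 and 10.8 FPKM lay below both H3.3WT libraries with the 2 H3.3K27M libraries far apart, and its change of -0.49 ± 0.23 did not pass (adjusted p = 0.147). Without H3.3K27M replicate 1 it passed (-0.82, adjusted p = 0.027; adjusted p from 0.027 to 0.578 over its alternatives). Dusp4 at 21.4 and 16.0 FPKM lay on both sides of H3.3WT, with a change of -0.0077 ± 0.19 (adjusted p = 0.980), and its sign depended on the scaling. H3.3K27M replicate 2 was below replicate 1 for 8 of 10 members, with a median log2 difference of -0.31, where the median over all 11601 genes was -0.051 and 56.6% of genes were lower. The corresponding member medians were -0.067 between the H3.3WT libraries and -0.068 between the Cbfa2t2_KO libraries.

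**Figure D2:**
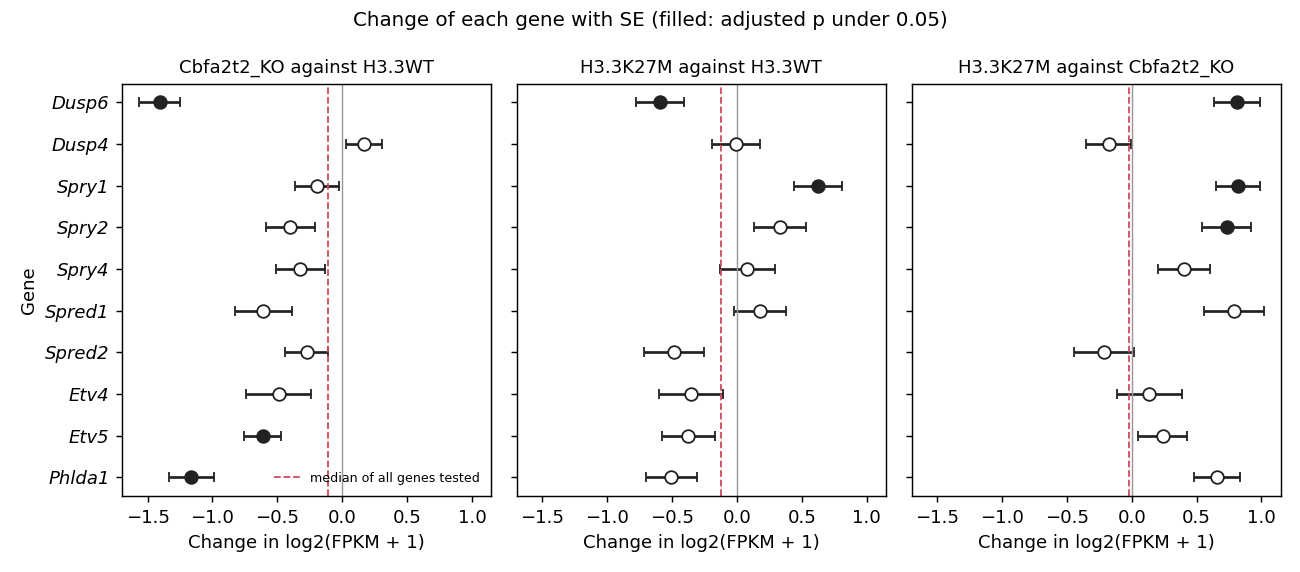
Change of each gene in log2(FPKM + 1) with its SE in the 3 comparisons, from limma; filled points have an adjusted p under 0.05 over all genes, and the dashed line is the median of all genes tested. The 3 genes Dusp6, Etv5 and Phlda1 pass on the left, Dusp6 and Spry1 pass in opposite directions in the middle, and Dusp6, Spry1 and Spry2 pass on the right.

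The third comparison set H3.3K27M directly against Cbfa2t2_KO, which is also the test of whether the 2 lines changed by different amounts. Dusp6, Spry1 and Spry2 were higher in H3.3K27M, at 1.89, 2.06 and 1.86 times the Cbfa2t2_KO mean, and no member was lower. These 3 of 10, in a set chosen with earlier results known, stand beside 3.12% of 11601 genes called higher, 4.68% called lower and 7.8% called in either direction. At an unadjusted p under 0.05, 5 members were higher and none lower. The change was above 0 for 8 of the 10, with a median of 0.53 where all genes had -0.019. All libraries of H3.3K27M lay above all of Cbfa2t2_KO for 6 members (Dusp6, Spry1, Spry2, Spry4, Spred1 and Phlda1), and no member was ordered the other way. Of all genes, 26.7% were ordered as these 6, 31.5% the other way and 58.2% in either.

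The log2 differences were 0.81 ± 0.17 for Dusp6 (adjusted p = 0.031), 0.82 ± 0.17 for Spry1 (adjusted p = 0.030) and 0.73 ± 0.19 for Spry2 (adjusted p = 0.048). Each was higher in both H3.3K27M libraries than in both Cbfa2t2_KO libraries. All 3 calls were lost when any single library of either line was left out, with the differences still between 0.65 and 0.96. That includes H3.3K27M replicate 1, the library whose removal cost the fewest calls over all genes. Over all genes, the 905 calls became 162 without Cbfa2t2_KO replicate 1, 29 without Cbfa2t2_KO replicate 2, 161 without H3.3K27M replicate 2 and 564 and 582 without H3.3WT replicates 1 and 2. Over the alternatives, the adjusted p ran from 0.023 to 0.196 for Dusp6, from 0.0090 to 0.196 for Spry1 and from 0.030 to 0.265 for Spry2. Spry2 was also lost without either H3.3WT library (adjusted p = 0.061 each), with a pseudocount of 0.1 (0.05023) and without a filter (0.055). Spred1, at 0.79 ± 0.23 (adjusted p = 0.067), and Phlda1, at 0.66 ± 0.18 (adjusted p = 0.056), lay outside the threshold and passed with median-of-ratios scaling (adjusted p = 0.042 and 0.043; over their alternatives from 0.038 to 0.374 and from 0.020 to 0.269). The remaining differences were 0.40 ± 0.20 for Spry4, 0.24 ± 0.19 for Etv5, 0.14 ± 0.25 for Etv4, -0.18 ± 0.17 for Dusp4 and -0.21 ± 0.23 for Spred2, with adjusted p-values from 0.218 to 0.757.

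The members thus fell into different orders. For Dusp6 and Phlda1 the order was H3.3WT, H3.3K27M, Cbfa2t2_KO, with no overlap between neighbours. For Spry1 and Spry2 it was H3.3K27M, H3.3WT, Cbfa2t2_KO, again without overlap between neighbours. Spry4 and Spred1 had that order too, but their H3.3K27M and H3.3WT libraries overlapped. Etv4, Etv5 and Dusp4 had overlaps between both pairs of neighbours, and Spred2 was highest in H3.3WT with the other lines overlapping. The Spred1 to Spred2 ratio within a library was 0.267 and 0.304 in H3.3WT, 0.232 and 0.182 in Cbfa2t2_KO and 0.425 and 0.521 in H3.3K27M. The 3 lines did not overlap in this ratio. The Spry1 to Spry2 ratio was lowest in H3.3WT, at 0.705 and 0.610, and overlapped between Cbfa2t2_KO, at 0.749 and 0.793, and H3.3K27M, at 0.933 and 0.780.

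**Figure D3:**
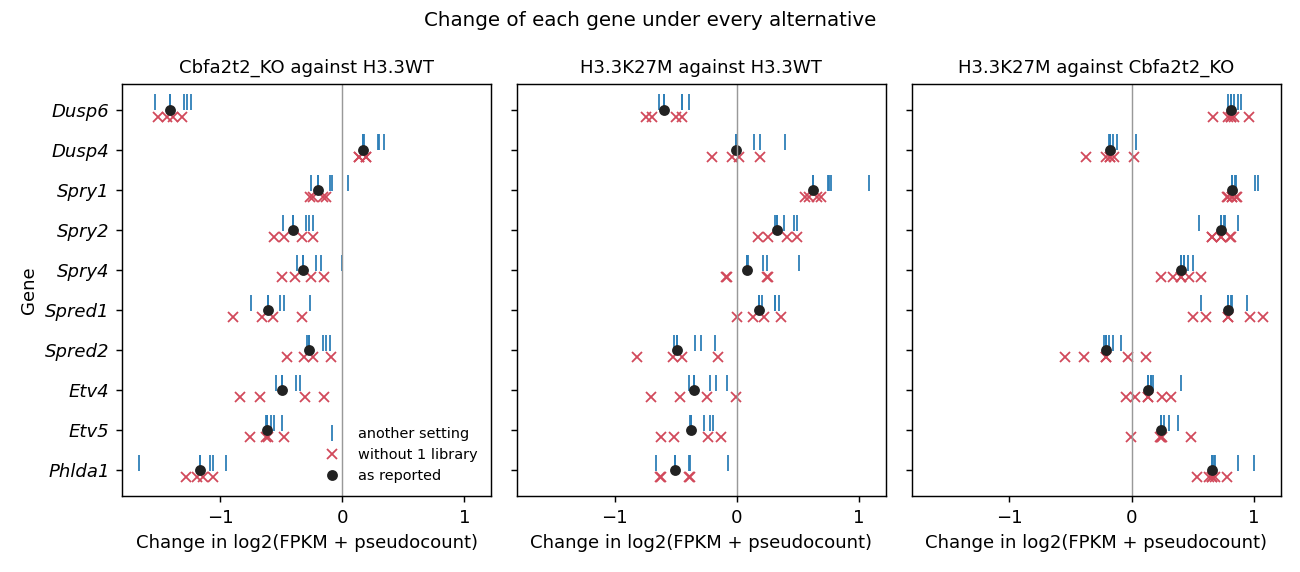
Change of each gene as reported (circles), under other settings (vertical ticks) and with 1 library left out (crosses), in log2(FPKM + pseudocount), for the 3 comparisons. Dusp6 stays between -1.53 and -1.23 in Cbfa2t2_KO, while Dusp4, Spry4 and Spred1 cross 0 in H3.3K27M.

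Across the 6 libraries, Dusp6, Spry4 and Etv5 followed the mean standardised profile of the other members most closely, with Pearson's r of 0.893, 0.871 and 0.869, and Dusp4 went against it with -0.289. Among 3297 other named genes with at least 2 FPKM in 1 library and a log2 range of at least 1, those most like the mean profile of all 10 members were Slc7a1 (r = 0.9945), which encodes a cationic amino acid transporter, the zinc finger factor gene Zic1 (0.976), Deptor (0.963), an mTOR inhibitor gene, Prickle1 (0.963) and the ephrin gene Efnb2 (0.952). These values describe 6 libraries in 3 lines, and their points share the lines and the scaling of each library.

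The rest of the pathway was read from lists of genes chosen by role. The effect of leaving a library out is given where it ends a call, for the genes followed under every setting; genes named by call alone were not followed so. Each list's counts stand beside the shares over all genes tested, which were 21.5% lower and 13.1% higher in Cbfa2t2_KO and 17.8% lower and 8.42% higher in H3.3K27M. Among growth factor ligands 8 of 33 were abundant enough to test. Fgf8 and Pdgfa fell in Cbfa2t2_KO and none rose. Pdgfa, a ligand of the PDGF receptors, had 2.97 ± 0.131 FPKM in H3.3WT and 1.52 ± 0.0422 in Cbfa2t2_KO (SD, n = 2), a call lost without any 1 of these 4 libraries (adjusted p from 0.056 to 0.077). In H3.3K27M no ligand passed against H3.3WT by limma, with 2 higher at an unadjusted p under 0.05 and 1 called higher with median-of-ratios scaling.

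The receptor list held 13 tested genes, all for receptor tyrosine kinases except Fgfrl1, whose product lacks the kinase domain. Of these 13, 5 fell in Cbfa2t2_KO (Fgfr1, Fgfr2, Fgfr4, Pdgfrb and Epha2) and 2 rose (Erbb3 and Kit). Over all genes 21.5% were lower and 13.1% higher. In H3.3K27M 5 fell, namely Fgfr2, Pdgfrb, Epha2, Fgfrl1 and Erbb2, and none rose, where 17.8% of all genes were lower and 8.42% higher; with median-of-ratios scaling 3 fell and 1 rose. The calls of Fgfr2 and Pdgfrb in H3.3K27M were lost without its replicate 2 or either H3.3WT library (adjusted p from 0.066 to 0.132). Fgfr1, a main FGF receptor of neural progenitors, stood at 28.6 and 25.5 FPKM in H3.3WT, 15.6 and 13.8 in Cbfa2t2_KO and 25.3 and 21.4 in H3.3K27M. Its fall in Cbfa2t2_KO, -0.83 ± 0.15, passed (adjusted p = 0.0050), and its change in H3.3K27M, -0.20 ± 0.17, did not (adjusted p = 0.404). The difference between the lines was 0.63 ± 0.16 (adjusted p = 0.048) and was lost without any 1 of the 6 libraries (adjusted p from 0.068 to 0.276), with a pseudocount of 0.1 (0.052), without a filter (0.058) and without trend (0.056), so that 4 of 13 alternatives called it. Erbb2 stood at 10.2 ± 0.107 FPKM in H3.3WT, at 9.36 ± 0.331 in Cbfa2t2_KO and at 4.46 ± 1.31 with H3.3K27M. It fell in H3.3K27M (-1.05 ± 0.21, adjusted p = 0.010), a call lost without H3.3WT replicate 1 or 2 (adjusted p = 0.061 and 0.062).

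Of 16 adaptor and RAS regulator genes, 2 rose (Shc1 and Cblb) and 2 fell (Gab1 and Rasal2) in Cbfa2t2_KO, and in H3.3K27M Cbl rose and Gab1 fell. These shares are near or under those of all genes, 13.1% higher and 21.5% lower in Cbfa2t2_KO and 8.42% and 17.8% in H3.3K27M. In Cbfa2t2_KO Cbl was called higher only under other settings, namely median-of-ratios scaling (adjusted p = 0.024), quantile normalization (0.030), the GC, length and exon adjustment (0.0053) and without Cbfa2t2_KO replicate 2 (0.042). Leaving out replicate 2 of H3.3WT ended the Shc1 call (adjusted p = 0.052), as did leaving out replicate 2 of Cbfa2t2_KO (0.077). The Cbl call was lost without H3.3K27M replicate 1 or either H3.3WT library (adjusted p from 0.121 to 0.165). Gab1, a docking protein that carries receptor signals to RAS, stood at 7.42 ± 0.626, 2.70 ± 0.0101 and 4.06 ± 0.827 FPKM in the 3 lines in the same order. Its call in H3.3K27M was lost without replicate 2 of that line (adjusted p = 0.114), H3.3WT replicate 1 (0.156) or H3.3WT replicate 2 (0.103). Of 16 genes for the RAS, RAF, MEK and ERK proteins and their partners, 5 rose in Cbfa2t2_KO (Mapk3, Map2k1, Rras, Araf and Ksr1) and 2 fell (Pea15a and Lamtor3), again beside 13.1% and 21.5% of all genes. In H3.3K27M Mapk3 and Map2k1 rose and Hras fell, and with median-of-ratios scaling 2 rose and 0 fell. Mapk3, which encodes ERK1, stood at 38.8 ± 0.563, 70.1 ± 6.21 and 61.6 ± 0.0389 FPKM in H3.3WT, Cbfa2t2_KO and H3.3K27M. Map2k1, which encodes MEK1, stood at 14.9 ± 2.04, 24.3 ± 1.40 and 39.7 ± 4.46 FPKM, and Map2k2, the MEK2 gene, at 28.3 ± 0.621, 31.7 ± 1.69 and 24.0 ± 1.15, which passed in neither (adjusted p = 0.390 and 0.313). Without H3.3WT replicate 2 or either Cbfa2t2_KO library the Map2k1 call in Cbfa2t2_KO was lost (adjusted p = 0.060 to 0.071), as was that of Mapk3 in H3.3K27M without H3.3K27M replicate 2 or either H3.3WT library (0.054 to 0.117).

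Among 17 effector kinase and transcription factor genes, 6 fell and none rose in Cbfa2t2_KO (5 and 1 with median-of-ratios scaling), and 4 fell and none rose in H3.3K27M. Over all genes 21.5% were lower and 13.1% higher in the former, and 17.8% and 8.42% in the latter. At an unadjusted p under 0.05, 1 was higher in each line by limma. Srf, the serum response factor gene, went from 37.9 ± 1.96 FPKM in H3.3WT to 18.4 ± 1.22 and 20.4 ± 0.299, and Ets2 from 5.70 ± 1.14 to 2.69 ± 0.468 and 2.22 ± 0.229. Srf was no longer called in H3.3K27M after the GC, length and exon adjustment (adjusted p = 0.120) or without H3.3WT replicate 2 (0.067). Ets2 was lost without H3.3WT replicate 2 in both lines (adjusted p = 0.084 and 0.070) and without Cbfa2t2_KO replicate 2 (0.087).

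Of 15 other feedback and output genes, 6 fell and 3 rose in Cbfa2t2_KO, and 5 fell and 2 rose in H3.3K27M, beside all-gene shares of 21.5% and 13.1%, and of 17.8% and 8.42%. With median-of-ratios scaling 5 fell and 3 rose in Cbfa2t2_KO, and 4 fell and 2 rose in H3.3K27M. Dusp7, which encodes another cytoplasmic ERK phosphatase, fell from 21.7 and 23.4 FPKM to 6.39 and 6.72 in Cbfa2t2_KO (-1.64 ± 0.15, adjusted p = 0.00061) and to 10.95 and 9.18 in H3.3K27M (-1.09 ± 0.18, adjusted p = 0.0045). Its 3 lines kept the order of Dusp6. Egr1, an immediate early gene of the pathway, stood at 173 and 273 FPKM in H3.3WT and at 5.97 to 7.59 in the other 4 libraries, while Ier3, another early gene, rose from 8.99 ± 1.42 to 54.7 ± 11.8 and 51.5 ± 5.08. The high Egr1 level is shared by both H3.3WT libraries, against which both lines are read, and its part in the changes of the 10 genes was not tested. Of 4 other MAP kinase phosphatase genes tested, Dusp2 and Dusp16 fell in both lines, Dusp16 from 10.2 ± 0.750 FPKM to 4.17 ± 2.84 and 6.12 ± 0.782. The Dusp16 call was lost without either H3.3WT library in both lines (adjusted p from 0.050 to 0.189), without Cbfa2t2_KO replicate 1 (0.064) and without H3.3K27M replicate 2 (0.120). In H3.3K27M it was also lost with median-of-ratios scaling (0.063), quantile normalization (0.081) and the fit of all 6 libraries (0.160), and in Cbfa2t2_KO with the GC, length and exon adjustment (0.091).

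**Figure D4:**
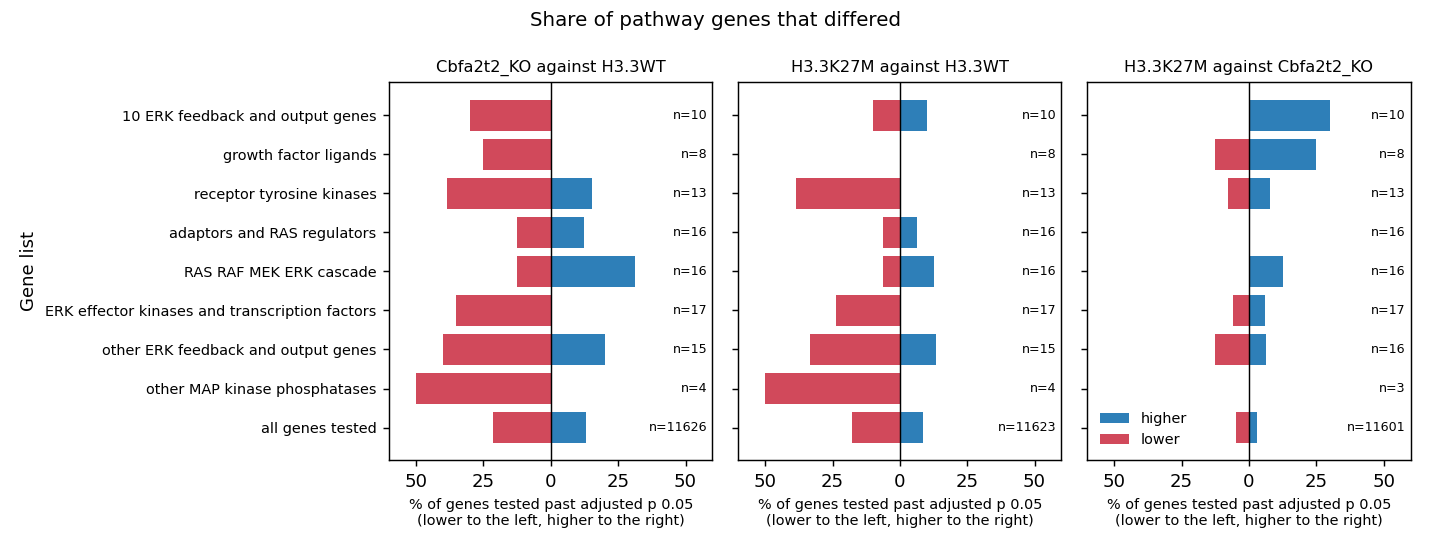
Percent of tested genes past an adjusted p of 0.05 (limma) in each pathway list and over all genes tested, lower to the left and higher to the right, with the number tested beside each bar. In the right panel the bar of the 10 genes, 30%, stands beside 3.12% of all genes called higher. The 10 genes were chosen with earlier results known, and the calls behind that bar were lost when any single library of either line was left out.

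Genes with few exons are a group to which 5 of the 10 belong. Among genes with at most 3 exons, 26.7% of 2460 were lower in Cbfa2t2_KO against 21.5% of all genes, and 23.1% of 2471 were lower in H3.3K27M against 17.8%. In the direct comparison of the lines 4.03% of 2454 such genes were higher in H3.3K27M and 3.79% lower. After the adjustment for GC, length and exons, Dusp6, Etv5 and Phlda1 were still called lower in Cbfa2t2_KO, Spry1 was still called higher in H3.3K27M, and Dusp6 in H3.3K27M was not called (-0.45, adjusted p = 0.083).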

How the data were processed

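The libraries were made from Trizol-extracted RNA by poly(A) selection and random priming, per the labels' protocols, which do not state the strand. The authors deposited FPKM values in 2 tables, Cbfa2t2_KO with H3.3WT (14431 genes) and H3.3K27M with H3.3WT (14318). Trim Galore, HISAT2, StringTie, DESeq and the build GRCm38 are listed without versions, per the submitters' processing notes. Every gene has at least 0.5 FPKM in 1 library of its table. The values were no multiples of a read step: at most 0.696% of low genes shared 1 ratio between libraries of a line. Columns were matched by name; those of H3.3K27M carry the letter M. Both H3.3WT columns are identical in the 2 tables.

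The filter was a mean of 1 FPKM or more, and tests ran on log2(FPKM + 1), a scale that understates changes of low genes, with limma 3.58.1 in R 4.3.3 (eBayes with trend, Benjamini-Hochberg over all genes, threshold 0.05). Each line was compared with H3.3WT over 4 libraries, and the lines with each other over 6. With 2 against 2 an exact permutation test cannot go below 0.333. Coordinates, length, GC and exons are from GENCODE vM21 (14646 of 14667 IDs) and promoters from RefSeq on GRCm38.p6. From each list, the genes given with values are at most 3 past the threshold in a comparison with H3.3WT, without overlap, of at least 2 FPKM and largest change, or part of them, with Fgfr1, Mapk3, Map2k1 and Map2k2 in any case. Not all of these are given with values, marker genes mostly as sums and counts, and 1 item is not reported here. The members and lists were chosen with earlier results of these data known. Alternatives were a pseudocount of 0.1, no filter or 5 FPKM, median-of-ratios, quantile, eBayes without trend, correction for GC, length and exons, 1 fit of all 6 libraries, and each library left out.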

Additional observations from a re-analysis of the deposited data

Results flagged for a closer look

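There were 3 members that changed by different amounts in the 2 lines, by the direct test of H3.3K27M against Cbfa2t2_KO (limma, Benjamini-Hochberg over 11601 genes). Dusp6, the ERK phosphatase gene, fell in both lines, though only 4 of 12 alternatives called its fall in H3.3K27M. Its level in H3.3K27M was 0.81 ± 0.17 higher than in Cbfa2t2_KO on the log2 scale (adjusted p = 0.031). Spry1 differed by 0.82 ± 0.17 (adjusted p = 0.030) and Spry2 by 0.73 ± 0.19 (adjusted p = 0.048), both with means below H3.3WT in Cbfa2t2_KO and above it in H3.3K27M. Each difference was seen in 2 against 2 libraries without overlap, and none of the 3 calls held without any 1 library of these lines.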

How the results depend on the processing

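In Cbfa2t2_KO against H3.3WT, 3 members were called, and 2 to 4 in the alternatives. In H3.3K27M against H3.3WT, 2 were called; the count was 1 without a filter, with 5 FPKM, with either scaling, without trend and with the GC, length and exon correction, and 0 to 2 with a library left out (by limma, 1 to 3 at an unadjusted p under 0.05 where it was 0). Between the lines 3 were called, 1 with 5 FPKM (7 members tested), 5 with median-of-ratios scaling or the correction, and 0 to 2 with a library left out (4 to 7 unadjusted where it was 0). Fewer samples leave fewer degrees of freedom; other causes were not tested. Over all genes, the 905 calls between the lines became 1522 with the correction; losses with a library left out stand beside the results. Reversed changes, none called, were 0.044 for Spry1 in Cbfa2t2_KO with the correction. For Dusp4 in H3.3K27M they were 0.14, 0.19 and 0.39 with median-of-ratios, quantile and the correction, and 0.039 between the lines with the correction. Erbb2 in Cbfa2t2_KO (0.0074, 0.038) reversed with median-of-ratios and quantile, and Map2k2 (0.13) and Fgfr1 (0.12) in H3.3K27M with the correction. With a library left out, H3.3K27M ranged from -0.21 to 0.19 for Dusp4, -0.091 to 0.25 for Spry4, -0.0013 to 0.36 for Spred1, -0.38 to 0.044 for Pdgfa and -0.19 to 0.23 for Shc1, and between the lines from -0.37 to 0.022 for Dusp4, -0.54 to 0.12 for Spred2, -0.049 to 0.32 for Etv4 and -0.0027 to 0.48 for Etv5. No paired analysis was possible because the labels carry no replicate numbers. Depth is unknown, so no limit from it can be set.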
